A study of Caenorhabditis elegans with 24 samples.

Results

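The 9 genes of Caenorhabditis elegans examined set how unsaturated membrane lipids are. They were the fatty acid desaturase genes fat-1 to fat-7, and paqr-2 and iglr-2, which encode a pair of membrane fluidity sensors. The choice was by gene symbol, and each symbol named 1 of the 46926 genes in every deposited comparison. Synchronized whole worms were collected at the young adult stage and their RNA was sequenced after ribosomal RNA had been removed, with 3 biological replicates in each of 8 groups, so 24 libraries in all. The mutant groups were 3xFG (mutations of the phenylalanine-glycine repeats in the germ granule helicases GLH-1, GLH-2 and GLH-4), WAGO-4(Y611E) (a change in the germline Argonaute protein WAGO-4 designed to stop it from holding small RNAs) and WAGO-4 KO (a stop codon in wago-4), and the reference strain was WT. The 3xFG, WAGO-4(Y611E) and WT worms all carried a 3xFLAG::GFP tag on WAGO-4, while no tag is given for WAGO-4 KO. Comparisons with WAGO-4 KO may therefore also differ in the tag, which cannot be told apart from the loss of WAGO-4. Each genotype was grown at 26 °C and at 20 °C. For 26 °C the parents were moved to that temperature before their eggs were collected, so growth temperature and this handling cannot be told apart.

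Fatty acid desaturases put double bonds into fatty acyl chains, and each double bond makes the membranes that hold the chain more fluid. Saturated chains receive their first double bond from the enzymes encoded by fat-5, fat-6 and fat-7, and fat-2, fat-3, fat-4 and fat-1 add further ones to give polyunsaturated fatty acids. Cold-blooded animals such as worms are known to make their membrane lipids more unsaturated in the cold and more saturated in the warmth. PAQR-2, a relative of the human adiponectin receptors, and its partner IGLR-2 are known to sense rigid membranes and to promote desaturation, and fat-7 is a widely used readout of this response. The desaturase genes are known to be expressed mainly in the intestine, although fat-3 and others act in further tissues.

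In the annotation of genome build WBcel235, all 9 are protein-coding genes. fat-5 lies on chromosome V at 17725004 to 17726818 on the plus strand, and fat-7 on the same chromosome at 7151353 to 7153146 on the minus strand. fat-6, a close paralog of fat-7, lies on chromosome IV at 11913692 to 11915687 on the minus strand. The genes for the later double bonds all lie on the plus strand of chromosome IV. fat-4 at 9799429 to 9802226 ends 796 bases before fat-3 at 9803023 to 9806119, and fat-1 at 13315644 to 13318811 ends 5061 bases before fat-2 at 13323873 to 13326395, with 1 other gene between them. paqr-2 (5375699 to 5379929) and iglr-2 (8326512 to 8331311) lie on the minus strand of chromosome III. Because the treatment of reads shared by fat-6 and fat-7 is not given in the sources used here, the split of counts between this pair is uncertain to that extent. fat-5 overlaps the antisense gene twk-42, whose mean count over all libraries was 95.9, against 994 for fat-5, and iglr-2 overlaps mrps-18A on its own strand, with a mean of 204 counts, against 2995 for iglr-2. The libraries were directional, but whether the counting used strand is not given in the sources used here.

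The deposited tables hold, for each gene, a mean normalized count over the libraries of a fit and log2 fold changes between groups, but no value per library. The level of a gene in each group was therefore rebuilt from the mean and the fold changes within the 12 libraries of each temperature, and its standard error (SE) from the deposited errors. The rebuilt levels at the 2 temperatures come from separately normalized fits; their ratios differed from the deposited fold changes between temperatures by -0.07 to 0.07 on the log2 scale over the 9 genes. In the WAGO-4 KO worms, wago-4 RNA stood at 4653 normalized counts at 26 °C, against 5574 in WT, and at 7017 counts at 20 °C, against 6798 in WT. Neither difference passed the authors' test, and since the allele is a stop codon, RNA level is no check of that label. Of the 41 marker genes in 8 lists of tissues and germ cell types, 1 hypodermis marker had a rebuilt level under 1 count in both WAGO-4 mutants at 20 °C. In the sperm list 1 marker lay under 1 count in 3xFG and WAGO-4 KO at 26 °C and in WAGO-4(Y611E) and WT at 20 °C, and all other levels were at least 1 count. In RNA from whole worms, fewer cells of a type and less RNA per cell cannot be told apart.

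The 9 genes spanned a wide range of levels. Set per kilobase of transcript, so that genes of different length can be compared, fat-2 was the highest in WT at both temperatures, with 15033 normalized counts per kilobase at 26 °C and 10041 at 20 °C. At 26 °C fat-6 (8798 per kilobase) and fat-1 (8229.5) followed in WT, then fat-4 (3891), fat-3 (1627), iglr-2 (868), paqr-2 (779), fat-5 (761) and fat-7 (298). At 20 °C fat-7 stood among the highest instead, with 7108 per kilobase in WT, next to fat-1 (8105) and fat-6 (6765), and fat-5 (307) was the lowest. Over the 8 groups, fat-7 ranged 38.8-fold and fat-5 ranged 9.88-fold, while the ranges of fat-2 (2.37-fold), fat-6 (2.10-fold), fat-4 (1.93-fold), fat-3 (1.67-fold), fat-1 (1.62-fold), iglr-2 (1.40-fold) and paqr-2 (1.31-fold) were narrower.

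**Figure D1:**
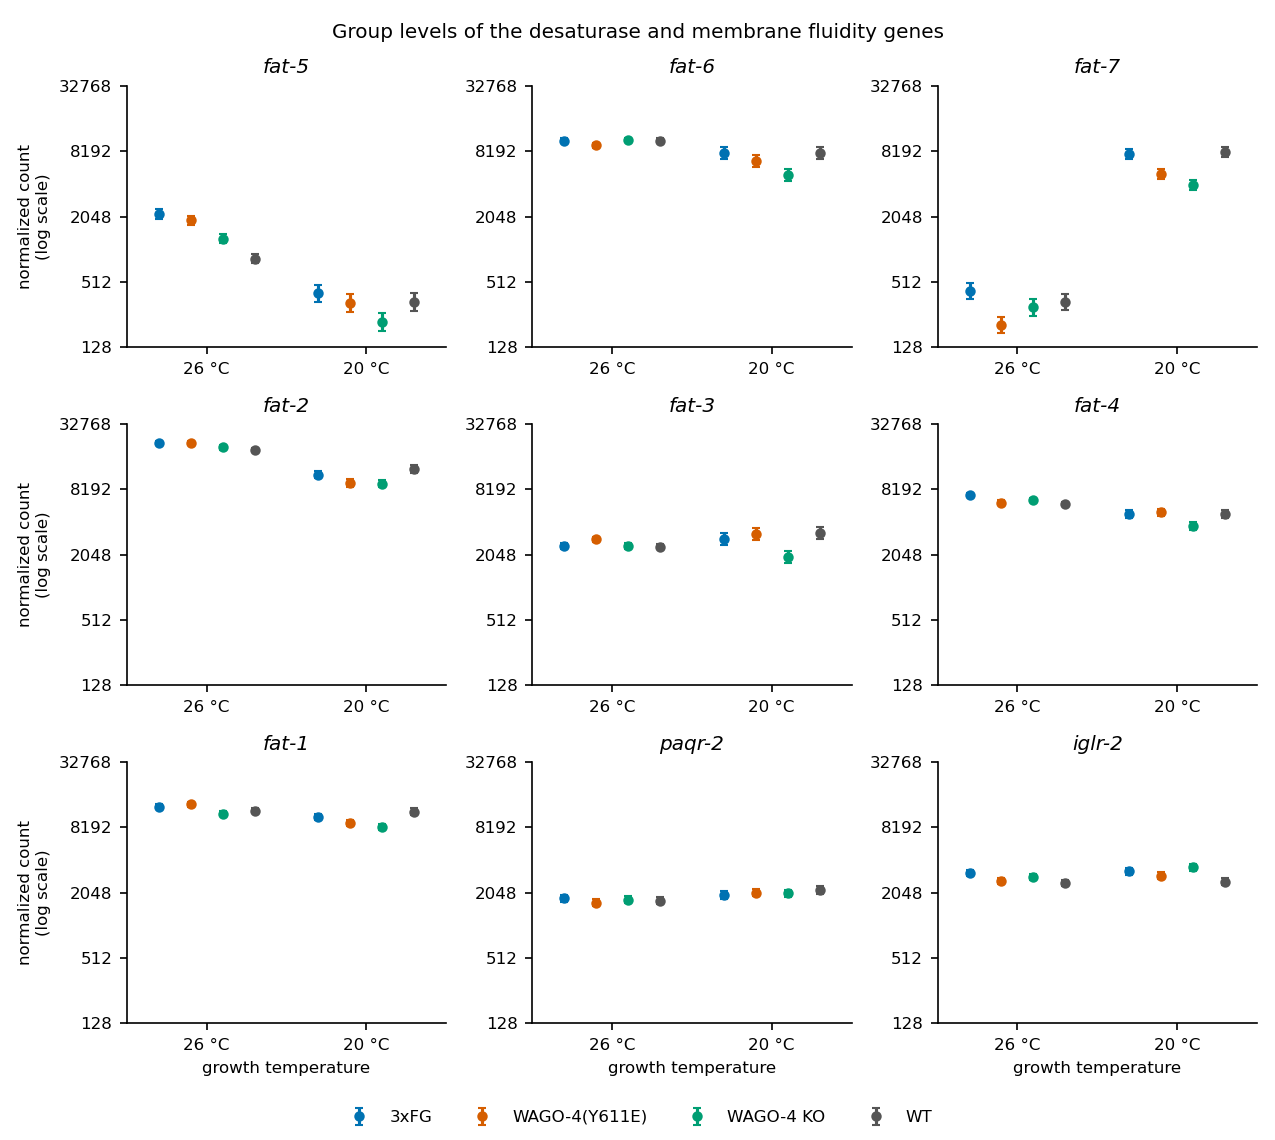
Rebuilt level of each gene in each group, in normalized counts on a log scale, with bars of 1 standard error; within each temperature the points stand for 3xFG, WAGO-4(Y611E), WAGO-4 KO and WT from left to right. The 4 groups of fat-7 at 26 °C (206 to 422 counts) lie far below those at 20 °C (4033 to 8004), those of fat-5 lie above, and paqr-2 and iglr-2 are nearly level.

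Growth at 26 °C was compared with growth at 20 °C in each genotype to see how the genes followed temperature. fat-5 and fat-2 rose and fat-7 fell in all 4 genotypes. A gene is called here when its adjusted p-value in the authors' DESeq2 Wald test (Benjamini-Hochberg adjustment over all genes tested) is under 0.05. In 3xFG, 4 of the 9 genes were called, against a background of 9.31% of all genes tested. In WAGO-4(Y611E), 4 of 9 were called (background 14.8%), in WAGO-4 KO 6 of 9 (background 17.5%) and in WT 3 of 9 (background 15%). The median log2 fold change of the 9 genes was 0.31 in 3xFG, 0.29 in WAGO-4(Y611E), 0.42 in WAGO-4 KO and 0.01 in WT, beside medians over all tested genes of 0.03, 0.08, 0.19 and 0.14 in the same order. Among genes with a mean count of at least 10 the median was 0.18 in WAGO-4 KO and 0.12 in WT, so fold changes in those genotypes sit on a small general shift.

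fat-7, a stearoyl-CoA desaturase that makes oleic acid from stearic acid, showed the steepest response. At 26 °C its level was 422 normalized counts in 3xFG, 206 in WAGO-4(Y611E), 299.5 in WAGO-4 KO and 335 in WT (SE 0.25 on the log2 scale in each). At 20 °C it was 7759.5 counts in 3xFG, 5080.1 in WAGO-4(Y611E), 4033 in WAGO-4 KO and 8004 in WT (SE 0.15 in each). Every group at 26 °C thus lay more than an order of magnitude below the same genotype at 20 °C. The deposited fold change was 17.7-fold lower in 3xFG (log2 fold change -4.15, SE 0.25, adjusted p = 1.38e-56), 23.8-fold lower in WAGO-4(Y611E) (-4.57, SE 0.26, adjusted p = 6.82e-67), 12.9-fold lower in WAGO-4 KO (-3.69, SE 0.25, adjusted p = 5.25e-44) and 23.3-fold lower in WT (-4.54, SE 0.25, adjusted p = 3.54e-67). By the size of its test statistic fat-7 ranked 1 of 15378 tested genes in both WT and WAGO-4(Y611E), and ranked 3 in 3xFG and WAGO-4 KO. Ranks by fold were lower, among genes called lower with a mean count of at least 10. They were 13 in 3xFG, 21 in WAGO-4(Y611E), 91 in WAGO-4 KO and 18 in WT.

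fat-6, which encodes the other stearoyl-CoA desaturase, did not follow its paralog. Its level at 26 °C was 10266 counts in 3xFG, 9311 in WAGO-4(Y611E), 10420.5 in WAGO-4 KO and 10258 in WT, against 7908, 6672, 4968 and 7888 counts at 20 °C in the same order of genotypes. The fold change passed the test only in WAGO-4 KO, where fat-6 rose (log2 fold change 1.06, SE 0.19, adjusted p = 1.50e-06). The positive values in 3xFG (0.36, adjusted p = 0.291), WAGO-4(Y611E) (0.46, adjusted p = 0.0868) and WT (0.35, adjusted p = 0.229) did not pass. The response in WAGO-4 KO was not called different from that in WT (difference 0.69, SE 0.27, adjusted p = 0.217, normal test described below). The group levels of fat-6 at 26 °C all lay above those at 20 °C.

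fat-5, a desaturase that prefers palmitic acid and gives palmitoleic acid, moved opposite to fat-7. Its level at 26 °C was 2173 counts in 3xFG, 1890.5 in WAGO-4(Y611E), 1289 in WAGO-4 KO and 840.3 in WT, against 402, 332, 219.9 and 338 counts at 20 °C in the same order. The lowest group at 26 °C, WT, was still above the highest at 20 °C, 3xFG. fat-5 rose 5.58-fold in 3xFG (log2 fold change 2.48, SE 0.27), 5.88-fold in WAGO-4(Y611E) (2.55, SE 0.27), 6.11-fold in WAGO-4 KO (2.61, SE 0.28) and 2.54-fold in WT (1.34, SE 0.28), with adjusted p-values between 1.43e-18 and 4.35e-05.

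The 3 genes for the first double bond thus differed in their makeup between the temperatures. fat-7 made up 3.95% of the summed fat-6 and fat-7 counts in 3xFG at 26 °C, against 49.5% at 20 °C, and 2.17% in WAGO-4(Y611E) at 26 °C, against 43.2% at 20 °C. In WAGO-4 KO the share was 2.79% at 26 °C, against 44.8% at 20 °C, and in WT it was 3.17% at 26 °C, against 50.4% at 20 °C. The remaining stearoyl-CoA desaturase RNA at 26 °C was therefore almost all assigned to fat-6. The share of fat-5 in the sum of all 3 genes was 16.9% in 3xFG, 16.6% in WAGO-4(Y611E), 10.7% in WAGO-4 KO and 7.35% in WT at 26 °C, against 2.09% to 2.75% in the 4 genotypes at 20 °C. The sum itself was 11148 counts per kilobase in 3xFG at 26 °C, against 14038 at 20 °C, and 9881 in WAGO-4(Y611E) at 26 °C, against 10534 at 20 °C. In WAGO-4 KO it was 10371 at 26 °C, against 8042 at 20 °C, and in WT 9857 at 26 °C, against 14179.5 at 20 °C, so it was higher at 26 °C in WAGO-4 KO and lower in the other genotypes. These shares and sums are descriptions of group means, for which no error over libraries can be given.

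**Figure D2:**
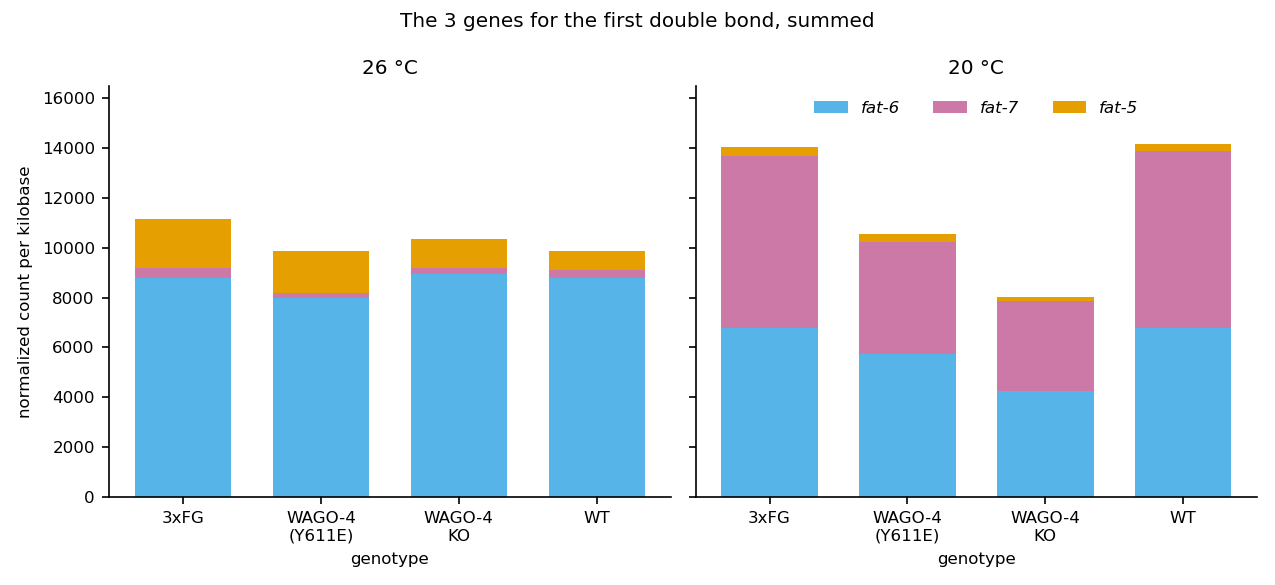
Summed levels of fat-6, fat-7 and fat-5 in normalized counts per kilobase of transcript, for each genotype at 26 °C (left) and 20 °C (right). The fat-7 segment is large in every bar at 20 °C and nearly gone at 26 °C, where the fat-5 segment is largest in 3xFG and WAGO-4(Y611E).

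fat-2, which encodes the desaturase that turns oleic acid into linoleic acid, rose with temperature in every genotype. Its level at 26 °C was 21908 counts in 3xFG, 21956 in WAGO-4(Y611E), 20013 in WAGO-4 KO and 18866 in WT, against 11195, 9390.2, 9258 and 12602 counts at 20 °C in the same order. The 4 groups at 26 °C all lay above the 4 at 20 °C. The increase was 1.94-fold in 3xFG (log2 fold change 0.96, adjusted p = 4.84e-10), 2.32-fold in WAGO-4(Y611E) (1.21, adjusted p = 2.59e-16), 2.16-fold in WAGO-4 KO (1.11, adjusted p = 1.05e-13) and 1.47-fold in WT (0.56, adjusted p = 9.66e-04), each with an SE of 0.14. In WT the call was lost when a trend of fold change with transcript length was removed (log2 fold change 0.35, adjusted p = 0.059).

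The genes that act after fat-2 moved less. fat-4, whose product makes arachidonic and eicosapentaenoic acid, rose in 3xFG (log2 fold change 0.58, SE 0.14, adjusted p = 9.93e-04) and in WAGO-4 KO (0.80, SE 0.14, adjusted p = 5.26e-07), while its values of 0.29 in WAGO-4(Y611E) (adjusted p = 0.151) and 0.28 in WT (adjusted p = 0.175) did not pass. fat-1, the desaturase that converts omega-6 into omega-3 fatty acids, rose in WAGO-4(Y611E) (0.58, SE 0.13, adjusted p = 1.69e-04) and WAGO-4 KO (0.42, SE 0.13, adjusted p = 0.00862). In 3xFG its value was 0.31 (adjusted p = 0.117) and in WT 0.01 (adjusted p = 0.98), where the 95% interval ran between -0.24 and 0.26. After re-centring on the median of all genes the fat-1 value in WAGO-4 KO was 0.24 and no longer passed (adjusted p = 0.181). fat-3, which opens the path to the longer polyunsaturated fatty acids, was called in no genotype, with log2 fold changes between -0.49 in WT and 0.30 in WAGO-4 KO and adjusted p-values between 0.101 and 0.566. Re-centred, the value of fat-3 in WT was -0.61 and passed (adjusted p = 0.0261). fat-3 and fat-4 thus had values of opposite sign in 3xFG, WAGO-4(Y611E) and WT; their difference was not tested.

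The sensor genes were called in none of these comparisons. paqr-2 stood at 1824 counts in 3xFG, 1657 in WAGO-4(Y611E), 1767 in WAGO-4 KO and 1732 in WT at 26 °C, against 1958, 2044, 2019 and 2176 counts at 20 °C in the same order. Its log2 fold changes were between -0.28 in WT (95% interval -0.58 to 0.01) and -0.04 in 3xFG (-0.34 to 0.25). iglr-2 had log2 fold changes between -0.30 in WAGO-4 KO (-0.59 to -0.01) and -0.06 in 3xFG (-0.35 to 0.23) and in WT (-0.35 to 0.23). All 8 values were negative, and the lowest adjusted p among them was 0.152. On re-centred values, paqr-2 passed in WT (-0.40, adjusted p = 0.044) and iglr-2 in WAGO-4 KO (-0.48, adjusted p = 0.00777).

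**Figure D3:**
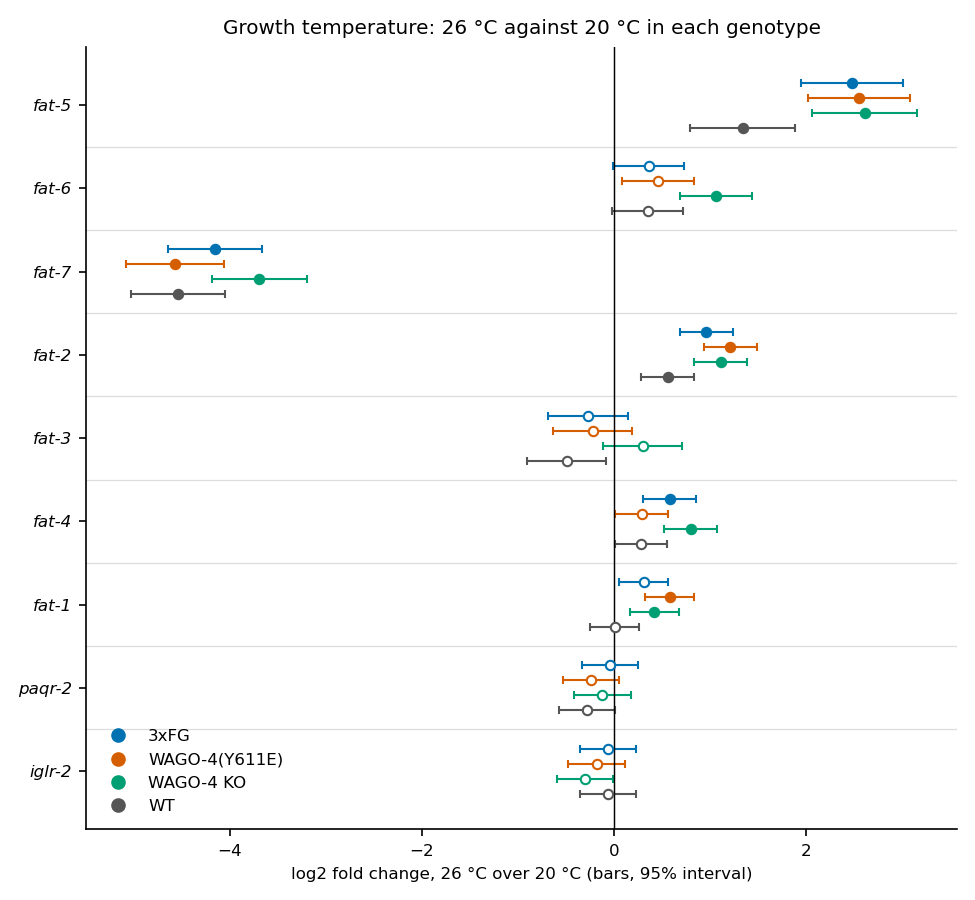
Deposited log2 fold change, 26 °C over 20 °C, of each gene in each genotype, with 95% intervals; filled points passed the authors' test at an adjusted p under 0.05. fat-7 stands far to the left at -4.57 to -3.69, fat-5 to the right at 1.34 to 2.61, and the intervals of paqr-2 cross 0.

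Some germ cell and tissue markers also differed between the temperatures. Of 5 germline markers, 4 fell in 3xFG, 3 in WAGO-4(Y611E), 4 in WAGO-4 KO and 2 in WT, and their summed level was 60631 to 65754 counts over the genotypes at 26 °C, against 82750.0 to 98642 at 20 °C. Of 5 sperm markers, 2 fell in 3xFG and 2 in WAGO-4(Y611E), while 0 of the 4 tested were called in WAGO-4 KO and 0 of 5 in WT. Their summed levels were 686 to 1402 counts at 26 °C, against 671 to 4498 at 20 °C. The 6 intestine markers, from the tissue in which most desaturases are known to be expressed, were not shifted in 1 direction. Of these, 1 rose and 2 fell in 3xFG, 2 rose and 1 fell in WAGO-4(Y611E), 2 rose in WAGO-4 KO and none was called in WT, and their sum was 39981 to 43195 counts at 26 °C, against 33205 to 55143 at 20 °C. The part of these shifts in the values of the 9 genes was not tested.

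Each mutant was then compared with WT grown at the same temperature, to see which genes depended on the germ granule or WAGO-4 mutations. At 26 °C, 2 of the 9 genes were called in 3xFG (background 4.9%), 1 of 9 in WAGO-4(Y611E) (background 2.91%) and 0 of 9 in WAGO-4 KO (background 2.76%) by the authors' DESeq2 test. In WAGO-4 KO, 1 of the 9, fat-5, had an unadjusted p under 0.05. At 20 °C, 0 of 9 were called in 3xFG (background 18.1%), where 1 of 9, iglr-2, had an unadjusted p under 0.05. In WAGO-4(Y611E) 1 of the 8 genes tested was called at 20 °C (background 11.1%), with fat-5 left out by the authors' filter on mean count, and in WAGO-4 KO 6 of 9 (background 18.2%). The backgrounds are shares called after adjustment, and no such share was counted for unadjusted p-values. All comparisons at a temperature share the WT libraries.

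The gene that set the mutants apart at 26 °C was fat-5. Its levels of 2173 counts in 3xFG, 1890.5 in WAGO-4(Y611E), and also the 1289 in WAGO-4 KO, all lay above the 840.3 counts in WT. It rose 2.59-fold in 3xFG (log2 fold change 1.37, SE 0.20, adjusted p = 1.24e-08) and 2.25-fold in WAGO-4(Y611E) (1.17, SE 0.20, adjusted p = 1.00e-05). In WAGO-4 KO the value of 0.62 (SE 0.20, adjusted p = 0.0748) did not pass, and it passed once the trend with transcript length was removed (0.70, adjusted p = 0.0304). With a t distribution in place of the normal the fat-5 calls in 3xFG and WAGO-4(Y611E) were both lost, where 4 of 9048 and 0 of 13230 genes tested were called in all. By the size of the test statistic fat-5 ranked 13 of 9048 tested genes in 3xFG and 14 of 13230 in WAGO-4(Y611E). fat-4 also rose in 3xFG, by a small margin (0.28, SE 0.09, adjusted p = 0.0476), with 7251 counts, against 5992 in WT. That call was lost when p-values were adjusted over all genes with a mean count of at least 10. Both WAGO-4(Y611E) and 3xFG worms at this temperature also had higher yolk protein RNA: of 6 vitellogenin genes, which are expressed in the adult intestine, 3 rose in 3xFG and 5 in WAGO-4(Y611E), and their sum was 3763347 and 4255023 counts in these mutants, against 3008989.8 in WT. Whether this had a part in the fat-5 values was not tested. Among the 6 intestine markers 0 were called in 3xFG, and 1 rose and 2 fell in WAGO-4(Y611E).

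At 20 °C the WAGO-4 KO worms had lower levels of most desaturase genes. fat-7 fell to 4033 counts in WAGO-4 KO, against 8004 in WT (log2 fold change -0.99, SE 0.22, adjusted p = 3.09e-04), and fat-1 fell to 8280.3 counts, against 11477 (-0.47, SE 0.13, adjusted p = 0.00467). fat-3 (-0.74, SE 0.26, adjusted p = 0.0289), fat-2 (-0.44, SE 0.16, adjusted p = 0.0299) and fat-6 (-0.67, SE 0.25, adjusted p = 0.0463) fell as well. These 5 decreases were all under 2-fold. iglr-2, in contrast, rose to 3522 counts, against 2585 in WT (0.45, SE 0.16, adjusted p = 0.0337). The values of fat-4 (-0.37, adjusted p = 0.105), fat-5 (-0.62, adjusted p = 0.276) and paqr-2 (-0.11, adjusted p = 0.688) did not pass. The median over all genes with a mean count of at least 10 was itself -0.13 in this comparison. Re-centred on it, only fat-7, fat-1 and iglr-2 passed, with the trend of fold change with transcript length removed only fat-7 did, and with a t distribution in place of the normal 0 of 9 did, as did 0 of all genes tested.

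In WAGO-4(Y611E) worms at 20 °C, fat-7 was the gene called. Its level fell to 5080.1 counts, against 8004 in WT (log2 fold change -0.66, SE 0.22, adjusted p = 0.0326). The call was lost under 6 alternatives, all but re-centring, among them the adjustment over all genes with a mean count of at least 10. At 26 °C fat-7 had a similar value in this mutant that did not pass (-0.70, SE 0.35, adjusted p = 0.409). The difference between the temperatures, 26 °C minus 20 °C, was -0.04 (SE 0.42). fat-2 (-0.42, SE 0.16, adjusted p = 0.0551) and fat-1 (-0.35, SE 0.13, adjusted p = 0.0556) narrowly missed the threshold. In 3xFG at 20 °C the log2 fold changes lay between -0.18 for fat-3 and 0.32 for iglr-2, beside a median of 0.13 over all genes with a mean count of at least 10. The 95% interval of the fat-7 value in 3xFG, -0.47 to 0.38, covered decreases and increases alike.

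**Figure D4:**
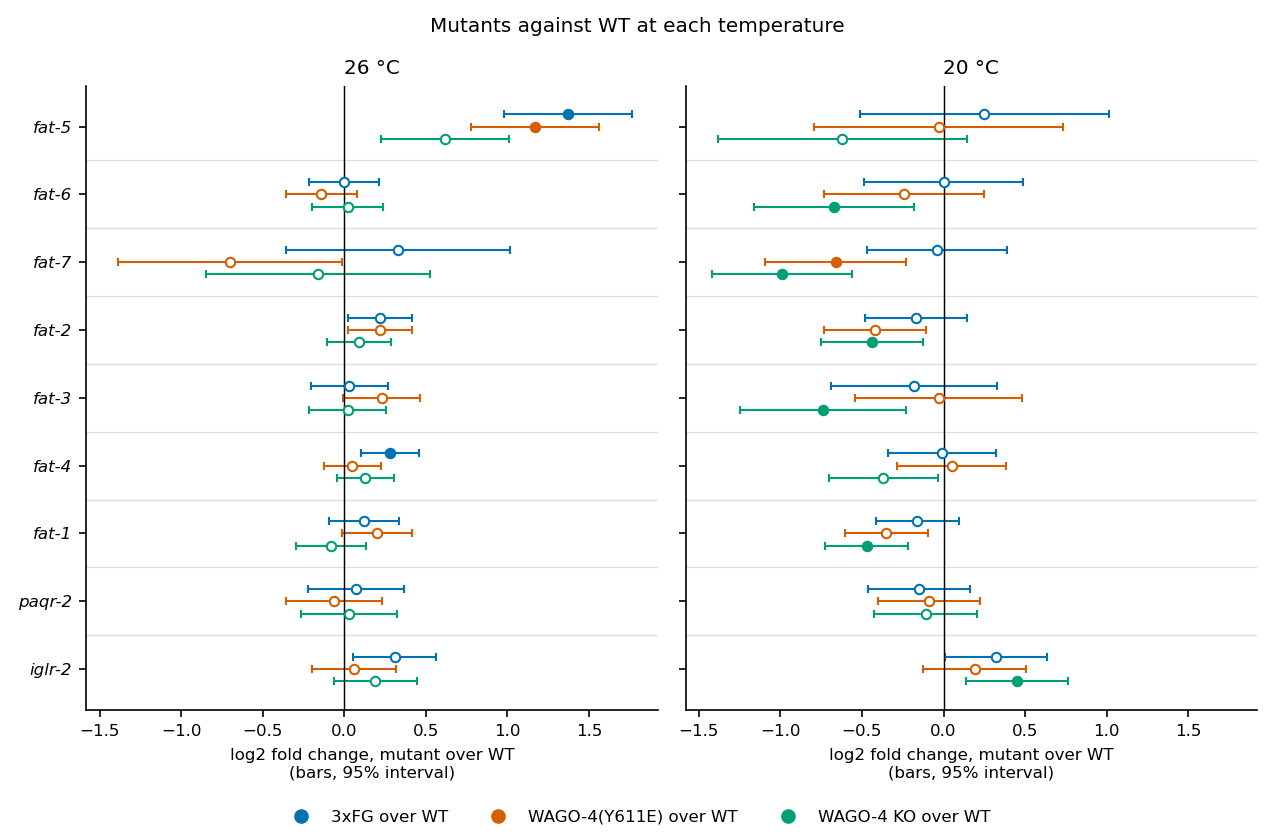
Deposited log2 fold change of each gene in each mutant over WT, at 26 °C (left) and 20 °C (right), with 95% intervals; filled points passed the authors' test at an adjusted p under 0.05. At 26 °C the filled points are fat-5 in 3xFG (1.37) and WAGO-4(Y611E) (1.17) and fat-4 in 3xFG (0.28), while at 20 °C they lie mostly in WAGO-4 KO, from fat-7 (-0.99) to iglr-2 (0.45).

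Markers of other tissues also differed in the WAGO-4 KO worms at 20 °C. Of 4 body wall muscle markers 3 fell, and their sum was 45222 counts, against 122527 in WT, while 3 of 5 oocyte markers rose, with a sum of 263803 counts, against 187649.6. The 6 intestine markers had a median log2 fold change of -0.45 with 0 called, and summed to 33205 counts, against 50490.0 in WT. The median of the 9 genes, -0.47, was close to that of the intestine markers, whose values ran between -0.71 and 0.82. Medians of the other marker lists were -1.31 for body wall muscle and for sperm, -0.34 for neurons and -0.23 for yolk. They were -0.11 for hypodermis, 0.30 for germline and 0.45 for oocytes. Whether a common shift lies behind the values of the 9 genes and of these markers was not tested. In WAGO-4(Y611E) at 20 °C, 1 of the 4 muscle markers fell, with a sum of 101851 counts, and 0 of the 5 tested intestine markers was called, with a sum of 40310.1.

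The mutants were also set against each other, with a test built from the deposited fold changes and errors and adjusted by Benjamini-Hochberg over all genes tested. The backgrounds for these pairs are shares called after adjustment. For genes at an unadjusted p under 0.05 no share over all genes was counted. At 26 °C fat-5 was higher in 3xFG than in WAGO-4 KO (log2 difference 0.75, SE 0.20, adjusted p = 0.0155), the only 1 of 9 called for that pair (background 2.81%). Between WAGO-4(Y611E) and WAGO-4 KO at 26 °C 0 of 9 were called (background 0.529%), with 2 at an unadjusted p under 0.05, fat-5 (0.55, SE 0.20) and fat-1 (0.28, SE 0.11). Between 3xFG and WAGO-4(Y611E) at 26 °C 0 of 9 were called (background 2.31%), with 2 at an unadjusted p under 0.05, fat-7 (1.03, SE 0.35) and fat-4 (0.23, SE 0.09). From high to low, the fat-5 levels at 26 °C were in the order 3xFG, WAGO-4(Y611E), WAGO-4 KO and WT. No neighbours in this order were separated by a call, with adjusted p = 0.748 for 3xFG against WAGO-4(Y611E), 0.25 for WAGO-4(Y611E) against WAGO-4 KO and 0.0748 for WAGO-4 KO against WT.

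At 20 °C fat-7 (0.94, SE 0.22, adjusted p = 5.63e-04) and fat-6 (0.67, SE 0.25, adjusted p = 0.0371) were higher in 3xFG than in WAGO-4 KO. These 2 of 9 were about the share of all genes called for this pair (background 23.9%). fat-7 had 7759.5 counts in 3xFG, against 4033 in WAGO-4 KO, and fat-6 had 7908 counts, against 4968. Between WAGO-4(Y611E) and WAGO-4 KO 0 of 8 were called (background 2.01%), with fat-3 (0.71, SE 0.26) and fat-4 (0.42, SE 0.17) at an unadjusted p under 0.05. Between 3xFG and WAGO-4(Y611E) 0 of 8 were called (background 4.39%), with fat-7 (0.61, SE 0.22) alone at an unadjusted p under 0.05. With root-summed errors of the 2 comparisons in place of the rebuilt error, none of the 9 genes was called in any of the 6 pairs. Root-summed errors also hold the variance of the shared WT libraries, which is not part of a difference between mutants. They are therefore larger by construction.

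Whether a mutant's effect differed between the temperatures was tested as the difference of its 2 fold changes over WT, at 26 °C minus at 20 °C, with normal p-values adjusted by Benjamini-Hochberg over 19762 genes. In WAGO-4(Y611E) 1 of 9 genes was called (background 1.66%): fat-2 had a log2 fold change over WT of 0.22 at 26 °C and -0.42 at 20 °C, a difference of 0.64 (SE 0.18, adjusted p = 0.0373). In the joint fit of both temperatures that difference was 0.65 and just missed the threshold (adjusted p = 0.0515). In 3xFG 0 of 9 were called (background 0.511%), with 2 at an unadjusted p under 0.05, and in WAGO-4 KO 0 of 9 (background 1.77%), with 7 at an unadjusted p under 0.05. The backgrounds are shares called after adjustment. How many of all genes had an unadjusted p under 0.05 was not counted, so the 2 and the 7 have no share to be set against. The fat-5 difference was 1.12 (SE 0.44, adjusted p = 0.293) in 3xFG, 1.20 (SE 0.44, adjusted p = 0.156) in WAGO-4(Y611E) and 1.24 (SE 0.44, adjusted p = 0.13) in WAGO-4 KO. For fat-4 it was 0.29 in 3xFG (adjusted p = 0.759) and 0.50 in WAGO-4 KO (adjusted p = 0.183). For fat-1 it was 0.55 in WAGO-4(Y611E) (adjusted p = 0.0574) and 0.39 in WAGO-4 KO (adjusted p = 0.307). All 7 desaturase genes had a positive difference in WAGO-4 KO, from 0.39 for fat-1 to 1.24 for fat-5, but none passed the adjustment, and the 3 mutants share the WT libraries.

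Other genes of lipid metabolism were counted in 5 lists of 40 genes, of which 39 were matched by symbol. Between 26 °C and 20 °C, the elongation genes, 12 in number, which lengthen fatty acids between desaturation steps, had 0 called in 3xFG, 2 higher in WAGO-4(Y611E), 2 higher in WAGO-4 KO, and 1 higher and 1 lower in WT. elo-6, an elongase of branched-chain and polyunsaturated fatty acids, rose in WAGO-4(Y611E) (0.63, adjusted p = 4.88e-04), WAGO-4 KO (0.81, adjusted p = 2.18e-06) and WT (0.43, adjusted p = 0.0309). hpo-8, a dehydratase of the elongation cycle, rose in WAGO-4(Y611E) (0.44) and WAGO-4 KO (0.48). The list median was -0.09 in 3xFG (0.03 over all tested genes), 0.06 in WAGO-4(Y611E) (0.08), 0.33 in WAGO-4 KO (0.19) and -0.10 in WT (0.14). Against WT at 20 °C, hpo-8 fell in 3xFG (-0.40), WAGO-4(Y611E) (-0.52) and WAGO-4 KO (-0.44), let-767, a ketoacyl reductase, fell in WAGO-4(Y611E) (-0.38) and WAGO-4 KO (-0.43), and elo-1 fell in WAGO-4(Y611E) (-0.62). At 26 °C 0 of the elongation genes was called in any mutant against WT.

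Of 11 regulators, sbp-1 and nhr-13 were the ones called in more than a single comparison. sbp-1, which encodes the worm SREBP that activates desaturase genes, rose at 26 °C against 20 °C in WAGO-4(Y611E) (0.82, SE 0.20, adjusted p = 8.95e-04), WAGO-4 KO (0.83, SE 0.20, adjusted p = 6.09e-04) and WT (0.72, SE 0.20, adjusted p = 0.00531), and its value in 3xFG was 0.39 (adjusted p = 0.27). It was also higher in 3xFG than in WT at 20 °C (0.85, adjusted p = 7.01e-04). nhr-13, a nuclear receptor known to act on desaturase genes, rose at 26 °C in 3xFG (1.23, SE 0.34, adjusted p = 0.0109), WAGO-4(Y611E) (1.18, SE 0.34, adjusted p = 0.0232) and WAGO-4 KO (1.50, SE 0.34, adjusted p = 0.00194) over WT. It was called in no comparison between temperatures, with values between -0.75 in WT and 0.40 in WAGO-4 KO. nhr-49, a nuclear receptor needed for fat-7 expression, was called in 1 comparison, 26 °C against 20 °C in WAGO-4 KO (0.43, adjusted p = 0.00442). acdh-11, an acyl-CoA dehydrogenase known to restrain fat-7 in the warmth, rose at 26 °C in WAGO-4(Y611E) (1.03, adjusted p = 1.35e-05), with 0.33 in WT (adjusted p = 0.304). Between temperatures the list had 0 genes higher in 3xFG, 2 in WAGO-4(Y611E), 2 in WAGO-4 KO and 1 in WT, and 0 lower. Over WT at 26 °C, 2 were higher in 3xFG, and 1 each in WAGO-4 KO and WAGO-4(Y611E), and at 20 °C 2 were higher and 1 lower in 3xFG, 0 were called in WAGO-4(Y611E) and 1 was higher in WAGO-4 KO.

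The fatty acid synthesis and activation genes, 5 in number, had 0 called between temperatures in 3xFG and WT, 1 lower in WAGO-4(Y611E) (acs-13, an acyl-CoA synthetase, -0.36), and 1 higher and 1 lower in WAGO-4 KO (pod-2, the acetyl-CoA carboxylase, 0.86, and acly-2, an ATP citrate lyase, -0.39). Against WT, acly-2 was the gene of this list called, higher in WAGO-4 KO at 20 °C (0.43, adjusted p = 0.0343). Of 7 genes of phosphatidylcholine synthesis, whose products set the head groups of membrane lipids, 4 were higher at 26 °C in WAGO-4 KO, where the list median was 0.53, while 1 was lower in 3xFG, 1 lower in WT and 0 were called in WAGO-4(Y611E). pmt-2, a phosphoethanolamine methyltransferase, fell at 26 °C in 3xFG (-0.52) and WT (-0.57) but rose in WAGO-4 KO (0.53), as did pmt-1 (0.88), sams-1 (1.10) and the choline kinase gene ckb-1 (1.76). In WAGO-4 KO at 20 °C pmt-2 (-1.05, adjusted p = 4.55e-04) and pmt-1 (-0.92, adjusted p = 0.00974) fell against WT, and sams-1, which makes the methyl donor, had a value of -0.99 that did not pass (adjusted p = 0.125).

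The fatty acid oxidation list, known targets of nhr-49, had 4 genes with a match. icl-1, the glyoxylate cycle enzyme, rose at 26 °C against 20 °C in 3xFG (1.27, adjusted p = 2.30e-07), WAGO-4(Y611E) (1.47, adjusted p = 5.19e-10) and WAGO-4 KO (1.78, adjusted p = 1.93e-14), with 0.37 in WT (adjusted p = 0.259). Over WT at 26 °C it rose in 3xFG (0.75, adjusted p = 9.66e-06) and WAGO-4(Y611E) (0.79, adjusted p = 6.75e-06), and at 20 °C it fell in WAGO-4 KO (-1.31, adjusted p = 2.41e-04). cpt-5, a carnitine palmitoyltransferase, fell at 26 °C in 3xFG (-1.05), WAGO-4(Y611E) (-1.13) and WT (-1.06), and hacd-1, a hydroxyacyl-CoA dehydrogenase, was higher at 26 °C in WAGO-4 KO (0.73) and lower in 3xFG than in WT at 26 °C (-0.36, adjusted p = 0.0491). acs-2 was called in no comparison.

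**Figure D5:**
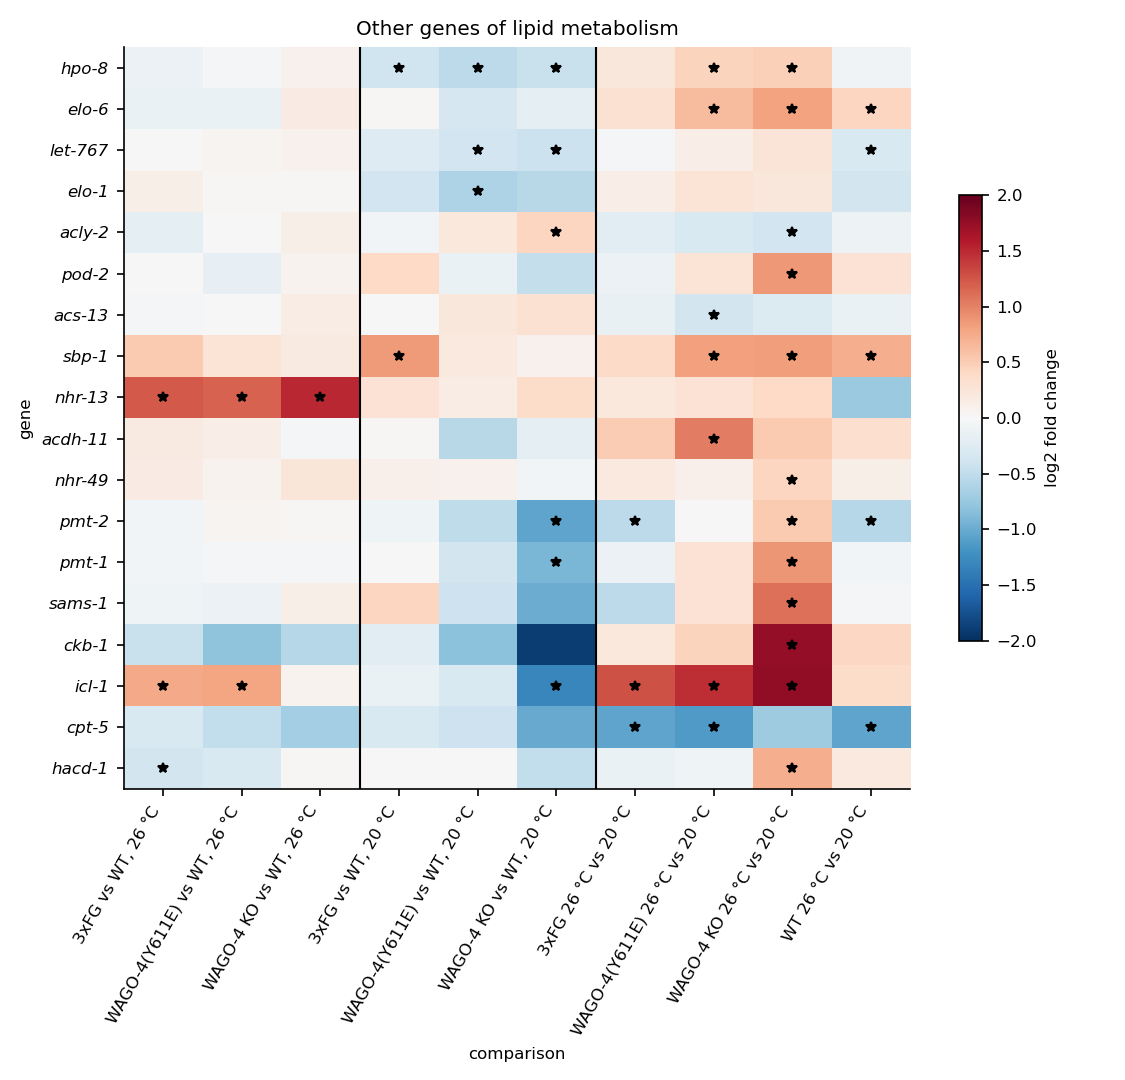
Deposited log2 fold change of the named genes of the 5 lists in the 10 comparisons, mutants over WT at 26 °C and 20 °C and 26 °C over 20 °C in each genotype; stars mark an adjusted p under 0.05. icl-1 reaches 1.78 and sbp-1 0.83 in WAGO-4 KO at 26 °C over 20 °C, and nhr-13 is marked in the 3 mutants at 26 °C.

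Genes with a pattern over the 8 groups most like that of the widest-ranging members were found by the root mean square difference of centred log2 levels, as a description with no test. For fat-5, out of 245 genes with a range about as wide or wider, these were anmt-3 (0.33), thn-2 (0.34), T19B10.2 (0.35) and F21A3.11 (0.39). For fat-2, out of 5449 genes, they were T10B5.7 (0.08), ZK1320.3 (0.09), H05C05.2 (0.10) and ife-2 (0.11), the last encoding a translation initiation factor. Candidates for fat-7 needed a mean count of at least 100 at each temperature, which leaves out steeply falling genes of lower level. Of the 11 genes that remained with a range about as wide or wider, the nearest was msp-65 (0.59), a major sperm protein gene. Its level in WT was 146 counts at 26 °C, against 1958 at 20 °C, and the next gene, T23F6.3, was already at 2.83.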

How the data were processed

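The authors extracted RNA with TRIzol, depleted ribosomal RNA, made directional libraries and used genome build WBcel235, per the labels; the aligner, counter and annotation are not given in the sources used here. The deposited tables come from the authors' DESeq2 comparisons in 3 fits (20 °C, 26 °C and both) and hold, per gene, the mean normalized count of the fit (a signal), log2 fold changes plain and shrunken, their standard error, a test statistic (a score) and adjusted p-values; per-library counts and depth were not used here, so precision rests on the deposited errors. The 9 members and the gene lists were chosen with earlier results of these data known. Although the fold changes and p-values are the authors' own, they are the only measurements in these tables and were therefore analysed. The deposited statistics equalled fold change over error, and the adjusted p-values a Benjamini-Hochberg adjustment of normal p-values over the genes that the filter on mean count had left.

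A group level was the number of groups times the mean count, divided by the summed fold changes over WT (WT as 1), times the fold change of the group. Errors of levels and of mutant pairs came from the negative binomial dispersion solved from the deposited errors; the 3 solutions per gene were within 1% of each other for 96.9% of ratios at 20 °C and 97.7% at 26 °C. Both steps were tested on data simulated with the same variance formula. That test checks the arithmetic, not whether the formula holds for the authors' fits. Alternatives were adjusted p under 0.01, at least 2-fold, re-centring on the median of genes with a mean count of at least 10, other filters, a t distribution with 8 or 16 degrees of freedom, and removal of a running median over transcript length (50 bins). Lengths and positions came from the Ensembl release 115 annotation of the same build, in which all 46926 gene IDs were found. All members were named; from each list at most 4 genes were named, those called in most comparisons, and for the 3 widest-ranging members the 4 genes most alike, among genes with a mean count of at least 100 and a range no more than 0.5 (log2) narrower. Python 3.11.15, numpy 2.4.6, pandas 2.3.3, scipy 1.17.1 and matplotlib 3.10.9 were used.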

Additional observations from a re-analysis of the deposited data

Results flagged for a closer look

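fat-2 was flagged because the effect of the WAGO-4(Y611E) mutation on it differed between the temperatures by a test of the difference itself. Its log2 fold change over WT was 0.22 at 26 °C and -0.42 at 20 °C, a difference of 0.64 (SE 0.18, adjusted p = 0.0373, normal test with Benjamini-Hochberg adjustment over 19762 genes). The call was lost in the joint fit of both temperatures (difference 0.65, adjusted p = 0.0515), with a t distribution and at an adjusted p under 0.01. fat-1 had a difference of 0.55 (SE 0.17, adjusted p = 0.0574) in the same mutant, which did not pass.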

How the results depend on the processing

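The temperature response kept its direction and its call for fat-7 and fat-5 in all 4 genotypes when values were re-centred or the length trend was removed; the calls of the mutants over WT rested more on the processing. The number of the 9 genes called changed by more than 1.5 times as follows. With an adjusted p under 0.01 it was 1 in 3xFG at 26 °C, 2 in WAGO-4 KO at 20 °C, where WAGO-4(Y611E) had 0, 0 for 3xFG against WAGO-4 KO at 26 °C and 1 at 20 °C, and 0 for the WAGO-4(Y611E) difference between temperatures. With at least 2-fold required it was 1 in 3xFG at 26 °C, 0 in both WAGO-4 mutants at 20 °C, and 2 in 3xFG between temperatures. Re-centring gave 3 in WAGO-4 KO at 20 °C and 5 in WT between temperatures. With no filter on low counts it was 1 in 3xFG at 26 °C, 2 in WAGO-4 KO at 20 °C, where WAGO-4(Y611E) had 0, and with a mean count of at least 10 it was 1 in 3xFG at 26 °C, 0 in WAGO-4(Y611E) at 20 °C, 1 for 3xFG against WAGO-4 KO at 20 °C and 2 for the WAGO-4(Y611E) difference. A t distribution gave 0 in 3xFG and WAGO-4(Y611E) at 26 °C, 0 in both WAGO-4 mutants at 20 °C and 0 for that difference under both degrees of freedom. Without the length trend it was 1 in WAGO-4 KO at 26 °C, 1 in WAGO-4 KO at 20 °C, where WAGO-4(Y611E) had 0. Summed standard errors gave 0 for 3xFG against WAGO-4 KO at both temperatures. The joint fit, an alternative chosen after seeing the data, gave 0 for the WAGO-4(Y611E) difference. Beyond what the t distribution, the stricter thresholds and the summed standard errors do by construction, the cause was not tested.

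Only uncalled fold changes turned their sign. fat-6 in 3xFG over WT at 20 °C became -0.12 re-centred and -0.05 without the length trend, fat-1 in WT between temperatures became -0.11 and -0.09, paqr-2 in WAGO-4 KO at 20 °C became 0.02 re-centred, and without the length trend fat-5 in WAGO-4(Y611E) at 20 °C became 0.10 and paqr-2 in WAGO-4 KO at 26 °C became -0.00. No paired analysis was possible because the tables hold no value per library, and for the same reason no replicate could be left out.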
